A study of Homo sapiens with 6 samples.

Results

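TXNIP and its alpha-arrestin relatives ARRDC1, ARRDC2, ARRDC3 and ARRDC4 were followed across 6 RNA-seq libraries of MOLM-13, a human leukaemia cell line of the acute monocytic (M5) kind. These 5 genes were taken by name from the 24878 genes of the deposited table, and the set was chosen by the ARRDC3 level, which was much higher in the knockout-labelled libraries than in the controls. The comparison of ARRDC3 with the controls is therefore a description and carries no test. The other members entered by family name. All 5 genes passed the filter on low counts and were among the 14601 genes tested.

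Of the 6 libraries, 2 came from cells given doxycycline for 5 days to switch on a CaMK2D knockout (KO) vector, 2 from such cells after 3 days, and 2 from control cells that received no doxycycline. The study's design text gives the controls another vector, so the KO groups differ from them in vector and in doxycycline at once, and the effects of these cannot be told apart. Between KO day 5 and KO day 3, the length of doxycycline exposure and the time since its start cannot be told apart either. The labels name neither a clone nor a guide, and they do not state whether each library was a culture of its own. The p-values therefore reflect library-to-library spread alone, possibly a technical one. Fewer cells of a type and less RNA per cell cannot be told apart in such bulk samples.

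Alpha-arrestins are adaptor proteins with an arrestin fold. Most carry short proline-rich motifs in the tail, which dock NEDD4-family ubiquitin ligases, and so they link ubiquitination to membrane cargo such as transporters and receptors. TXNIP also binds thioredoxin, the small protein that reduces disulfides, and it limits glucose uptake by drawing glucose transporters from the cell surface. TXNIP and ARRDC4 are known targets of the glucose-sensing transcription factor MondoA (MLXIP) and its partner MLX, which bind carbohydrate response elements made of paired E-box-like motifs. ARRDC3 is best known for controlling the trafficking of receptors and of an integrin, and ARRDC1 for the budding of microvesicles at the plasma membrane with TSG101.

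The promoters of TXNIP and ARRDC4 are shown because both genes are known targets of MondoA and MLX. TXNIP was called against control and ARRDC4 was not, and the difference between the 2 genes was not tested. A stretch of ARRDC3 is shown beside them for its match to a forkhead motif, the kind bound by FOXO factors. The sequences are from RefSeq on GRCh38.p14, 5′ to 3′ on the gene's strand, and capitals mark motif matches. TXNIP is chr1:145996610-145996779 on the minus strand, ARRDC4 is chr15:97960453-97960652 on the plus strand, and ARRDC3 is chr5:91380108-91380137 on the minus strand.
TXNIP: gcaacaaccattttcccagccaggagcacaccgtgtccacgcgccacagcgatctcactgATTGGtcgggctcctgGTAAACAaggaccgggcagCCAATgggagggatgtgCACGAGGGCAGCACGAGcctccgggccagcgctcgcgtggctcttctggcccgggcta
ARRDC4: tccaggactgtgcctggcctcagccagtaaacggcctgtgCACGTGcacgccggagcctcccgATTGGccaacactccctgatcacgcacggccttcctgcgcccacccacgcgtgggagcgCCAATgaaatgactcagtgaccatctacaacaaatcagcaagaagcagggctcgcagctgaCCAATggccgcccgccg
ARRDC3: agcccggcactTGTTTACcacggcgcggcc

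The search covered windows of 300 bases, with 250 before and 50 after each RefSeq transcript start. It looked for 4 sets of letters on both strands, none of which overlapped another in these matches. The paired E-box-like motif, CACGNG in 2 copies with 5 bases between them, was written down after the TXNIP promoter had been seen. It matched TXNIP at positions -88 to -72 from its first start. It was found in 20 of 35116 windows (0.057%). The E-box CACGTG matched ARRDC4 at positions -210 to -205, and 7.26% of all windows hold it. The forkhead letters GTAAACA, or TGTTTAC on the other strand, occur in 3.42% of windows, and they matched TXNIP at -124 to -118 from its first start and ARRDC3 at -29 to -23 from its second start, within an annotated exon of ARRDC3. The letters CCAAT, or ATTGG, occur in 34.6% of windows and were found 2 times in the first TXNIP window, 3 times in that of ARRDC4, and once in 1 window each of ARRDC1, ARRDC2 and ARRDC3. A match describes letters in a window and not a bound site.

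**Figure D1:**
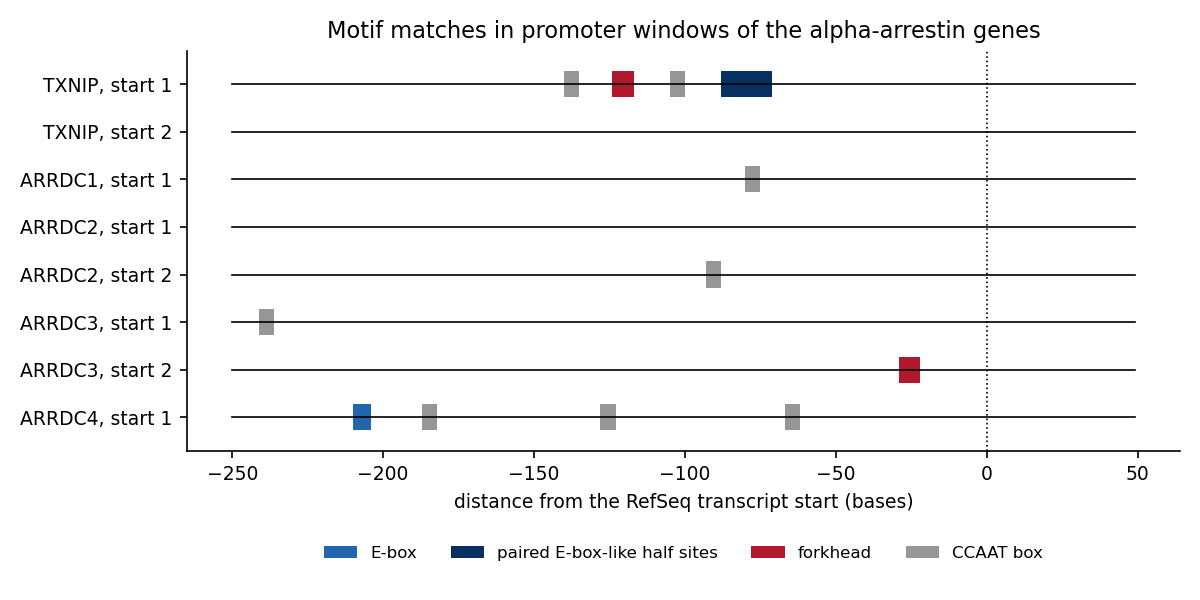
Motif matches in the promoter windows of the 5 alpha-arrestin genes, with the distance from the RefSeq transcript start in bases on the horizontal axis and a row for each gene and start. Boxes mark the E-box in ARRDC4, the paired E-box-like motif in TXNIP, the forkhead letters in TXNIP and ARRDC3, and the CCAAT letters.

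Levels below are TMM-scaled CPM, the deposited raw counts divided by each library's total after scaling it with edgeR's trimmed mean factor. Total counts ranged from 15456770 to 21081298. Changes are log2 fold changes with their standard error (SE) from 1 edgeR quasi-likelihood fit of all tested genes, and a gene was called where its Benjamini-Hochberg (BH) adjusted p over the 14601 genes was under 0.05. The targeted gene CAMK2D stood at 28.98 and 28.1 CPM at KO day 5, 14.7 and 15.6 CPM at KO day 3, and 23.0 and 14.5 CPM in the controls. Its log2 fold change against control was 0.61 (SE 0.23, edgeR BH-adjusted p = 0.118) at day 5 and -0.30 (SE 0.23, edgeR BH-adjusted p = 0.437) at day 3. Its mRNA therefore does not mark the knockout, and the libraries are called KO-labelled where a direction is drawn. At day 5 CAMK2D passed the threshold, higher than in the controls, without control replicate 1 (edgeR BH-adjusted p = 0.0317) and with the replicate number as a block (edgeR BH-adjusted p = 0.0198). In KO day 5 against KO day 3 its log2 fold change of 0.91 was not called (edgeR BH-adjusted p = 0.196), but it passed without a low-count filter (edgeR BH-adjusted p = 0.0102), with DESeq2 (adjusted p = 0.0488) and with the block (edgeR BH-adjusted p = 0.00946). All 13 markers of the MOLM-13 monocytic list were at 1 CPM or more in every library. Their summed level was 1455 to 1766 CPM at KO day 5, 1405 to 1528 CPM at KO day 3 and 3197 to 3873 CPM in the controls, and its part in the results below was not tested. MPO, the myeloperoxidase, had 6.85 and 15.6 CPM at KO day 5, 16.5 and 27.7 CPM at KO day 3, and 662 and 1219.9 CPM in the controls, and the receptor kinase gene FLT3 241 and 269 CPM, 341 and 328 CPM, and 1063 and 876 CPM in the same groups. The other 11 markers summed to 1208 and 1482 CPM at KO day 5, 1047 and 1172 CPM at KO day 3, and 1472 and 1778 CPM in the controls. That sum overlapped the controls at KO day 5 and lay below them at KO day 3, but it pools opposite changes. At KO day 5 CSF1R (1.53 and 5.35 CPM, controls 30.9 and 41.0), ITGAM, CD4 and SPI1 lay below both controls. CEBPA (448 and 469 CPM, controls 315 and 343) and MEIS1 lay above both, and the rest overlapped. LYZ differed widely within groups, with 19.0 and 229 CPM at KO day 5, 33.6 and 178 CPM at KO day 3, and 139 and 392 CPM in the controls. Replicate 2 was the higher library for LYZ in each group, and the lower one for HOXA9. Of the T and NK cell list the table holds only NCAM1, at 98.4 to 129.8 CPM in all libraries, and of the erythroid list 1 gene, at most 0.767 CPM. The summed B cell markers were 21.7 to 22.4 CPM at KO day 5, 20.4 to 34.6 CPM at KO day 3 and 26.7 to 35.6 CPM in the controls. The summed epithelial and stromal markers lay between 17.6 and 34.1 CPM, with overlapping groups.

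TXNIP (ENSG00000265972, chromosome 1, 145992435 to 145996600, minus strand, GRCh38) was the most abundant member and fell in the KO-labelled libraries at both days. It had 91.9 and 103.6 CPM at KO day 5, 192 and 178 CPM at KO day 3, and 281 and 275 CPM in the controls. The 3 groups did not overlap: both KO day 5 libraries were below both KO day 3 libraries, which were below both controls. The group means were 97.8 ± 8.28 CPM at KO day 5, 185 ± 9.96 CPM at KO day 3 and 278 ± 3.90 CPM in the controls (SD, n = 2 each). Against control, TXNIP fell by 1.51 on the log2 scale at day 5 (SE 0.12, edgeR BH-adjusted p = 0.000673), a level 2.84-fold lower. At day 3 it fell by 0.59 on the log2 scale (SE 0.12, edgeR BH-adjusted p = 0.0207), a level 1.50-fold lower. The day 5 call held under all 16 alternatives, with adjusted p (edgeR, DESeq2 or limma) up to 0.024. The day 3 call was lost without KO day 3 replicate 1 (log2 fold change -0.63, edgeR BH-adjusted p = 0.121) and without KO day 3 replicate 2 (log2 fold change -0.51, edgeR BH-adjusted p = 0.194), with adjusted p from 0.000937 to 0.194 over its 16 alternatives. Ranked by log2 fold change, TXNIP was the 750th lowest of the 14601 tested genes at day 5 and the 2770th lowest at day 3.

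ARRDC3 (ENSG00000113369, chromosome 5, 91368724 to 91383359, minus strand) was nearly silent in the controls and present in every KO-labelled library, which is why the set was chosen. It had 12.1 and 10.9 CPM at KO day 5, 7.71 and 5.44 CPM at KO day 3, and 0.321 and 0.288 CPM in the controls. Behind these levels stood 214 and 199 reads at KO day 5, 148 and 99 reads at KO day 3, and 5 and 6 reads in the controls. The controls were far below every KO-labelled library, and both KO day 5 libraries were above both KO day 3 libraries. Exact Poisson intervals at 95%, which cover counting error only, were 9.41 to 13.8 CPM over both KO day 5 libraries, 4.42 to 9.06 CPM over both KO day 3 libraries and 0.104 to 0.750 CPM over both controls. The group means were 11.5 ± 0.877 CPM at KO day 5, 6.58 ± 1.61 CPM at KO day 3 and 0.304 ± 0.0237 CPM in the controls (SD, n = 2 each). The fitted log2 fold change against control was 5.21 (SE 0.40) at day 5, a 37.1-fold higher level, and 4.41 (SE 0.39) at day 3, a 21.3-fold higher level. These ranked 29th and 30th highest of the 14601 tested genes. Each alternative that used the counts kept the value between 5.10 and 5.29 at day 5 and between 4.15 and 4.66 at day 3. The antisense neighbour ARRDC3-AS1 shares 145 exon bases with ARRDC3, 2.94% of the exon length of ARRDC3. It had 8 and 24 reads at KO day 5, 4 and 0 at KO day 3, and 1 and 0 in the controls, too few for the test. The labels do not give the library kit as stranded, and where the 2 genes overlap their reads cannot be told apart.

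**Figure D2:**
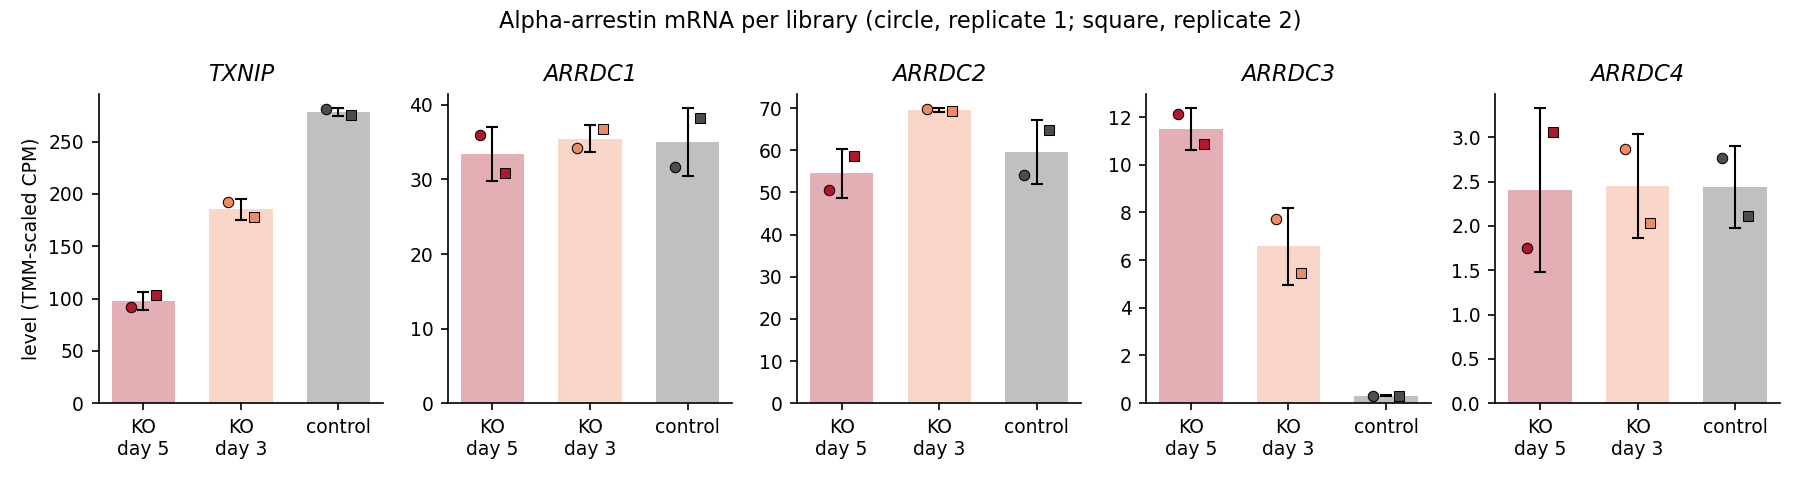
Level of each alpha-arrestin gene in TMM-scaled CPM on the vertical axis of each panel, for KO day 5, KO day 3 and control. Bars give the mean of 2 libraries, whiskers the SD, circles replicate 1 and squares replicate 2, and TXNIP is lowest at KO day 5 and highest in the controls while ARRDC3 stands at 12.1 and 10.9 CPM at KO day 5 and 0.321 and 0.288 CPM in the controls.

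ARRDC1 (ENSG00000197070, chromosome 9, 137605654 to 137615360, plus strand), the microvesicle-forming member, did not differ beyond the spread of its libraries. It had 36.0 and 30.8 CPM at KO day 5, 34.2 and 36.8 CPM at KO day 3, and 31.7 and 38.2 CPM in the controls, so all groups overlapped. Its log2 fold change against control was -0.07 (SE 0.17, edgeR BH-adjusted p = 0.827) at day 5 and 0.02 (SE 0.17, edgeR BH-adjusted p = 0.957) at day 3. The antisense gene ARRDC1-AS1 shares 29 exon bases with it and stood at 13.8 and 14.7 CPM at KO day 5, 13.4 and 14.7 CPM at KO day 3, and 13.4 and 16.1 CPM in the controls. It was not called, with log2 fold changes of -0.05 (edgeR BH-adjusted p = 0.904) at day 5 and -0.07 (edgeR BH-adjusted p = 0.856) at day 3.

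ARRDC2 (ENSG00000105643, chromosome 19, 18001132 to 18014102, plus strand), a member with fewer known partners, had 50.5 and 58.7 CPM at KO day 5, 69.8 and 69.3 CPM at KO day 3, and 54.2 and 64.9 CPM in the controls. Both KO day 3 libraries lay above both controls and both KO day 5 libraries, while the KO day 5 and control libraries overlapped. None of these differences was called: the log2 fold change against control was -0.13 (SE 0.15, edgeR BH-adjusted p = 0.610) at day 5 and 0.22 (SE 0.15, edgeR BH-adjusted p = 0.357) at day 3.

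ARRDC4 (ENSG00000140450, chromosome 15, 97960698 to 97973838, plus strand), the relative of TXNIP that shares its MondoA control, was low throughout. It had 1.75 and 3.06 CPM at KO day 5, 2.87 and 2.03 CPM at KO day 3, and 2.76 and 2.11 CPM in the controls, from 31 to 56 reads per library. The lowest and the highest level were both at KO day 5, and all groups overlapped. The means were 2.41 ± 0.922 CPM at KO day 5, 2.45 ± 0.589 CPM at KO day 3 and 2.44 ± 0.462 CPM in the controls (SD, n = 2 each). Its log2 fold change against control was -0.01 (SE 0.48, edgeR BH-adjusted p = 0.990) at day 5 and 0.01 (SE 0.48, edgeR BH-adjusted p = 0.990) at day 3. With an SE of this size a change of the size seen for TXNIP at day 3 would not have been detectable at this depth. Whether a change of the TXNIP size at day 5 would have been called was not tested.

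ARRDC5, an alpha-arrestin outside the chosen set, was near the limit of detection. It had 5 and 0 reads at KO day 5, 0 and 0 at KO day 3, and 10 and 16 in the controls. With 3 reads per library as the limit that a count of 0 allows, and the control levels taken as measured, its level was at least 4.39-fold lower at KO day 3 than in the controls. The exact Poisson intervals of the controls, 0.308 to 1.18 CPM and 0.438 to 1.25 CPM, show how few reads stand behind that bound. ARRDC5 was not called at either day. It passed the low-count filter only through the controls, where it was highest. Its levels are therefore a description, and no test is read from them.

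Of the 4 members that entered by name, 1, TXNIP, was called against control at day 5, where 14.5% of all tested genes were called, 7.44% higher and 7.05% lower. TXNIP was also the 1 of these 4 called at day 3, where 11.7% were called, 5.72% higher and 5.99% lower. ARRDC3 is not counted, since its rise chose the set, and nothing is read from these shares. Relative log expression and upper-quartile scaling gave the same calls for the 4 members counted. The median log2 fold change of the 5 members was -0.07 at day 5 and 0.02 at day 3, beside 0.01 and -0.00 over all tested genes. Groups did not overlap for 2 of 5 members at day 5, where 58.1% of all tested genes did not overlap, and for 3 of 5 at day 3, where 60.4% did not. ARRDC3 is among them at both days by the choice of the set.

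The step between the days was not used to choose the members that entered by name. The ARRDC3 levels of both days stood behind the choice of the set, and ARRDC3 passed the low-count filter only through the KO-labelled libraries. Its step between the days is therefore not independent of the choice, and it is given without a test. None of the members that entered by name was called in KO day 5 against KO day 3, where 0.0274% of all tested genes were called. DESeq2 called 1 member, TXNIP, and 306 genes in all. TXNIP and ARRDC2 had an unadjusted p under 0.05 in the edgeR fit. The share of all tested genes at that level was not counted, so nothing is read from it. Of the members that entered by name, TXNIP and ARRDC2 had groups that did not overlap, as did 49.2% of all tested genes. TXNIP had a value of -0.92 on the log2 scale (SE 0.12, unadjusted p = 5.35e-05, edgeR BH-adjusted p = 0.0944), and pairing libraries by replicate number gave log2 ratios of -1.07 and -0.78. It passed the threshold without a low-count filter (edgeR BH-adjusted p = 1.02e-07), with DESeq2 (adjusted p = 6.64e-07), with the replicate number as a block (edgeR BH-adjusted p = 0.000225), without control replicate 1 (edgeR BH-adjusted p = 0.0401) and without control replicate 2 (edgeR BH-adjusted p = 0.0365). Over all 16 alternatives the adjusted p ran from 1.02e-07 to 0.503 and the log2 fold change from -1.02 to -0.82. As a description, ARRDC3 stood higher at day 5 than at day 3 by 0.80 (SE 0.30), with log2 ratios of 0.65 and 0.998 by replicate number. ARRDC2 had a value of -0.35 (SE 0.15, edgeR BH-adjusted p = 0.319), ARRDC1 -0.09 (SE 0.17, edgeR BH-adjusted p = 0.851) and ARRDC4 -0.03 (SE 0.48, edgeR BH-adjusted p = 0.988). ARRDC1, ARRDC2 and ARRDC4 were not called in any alternative.

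**Figure D3:**
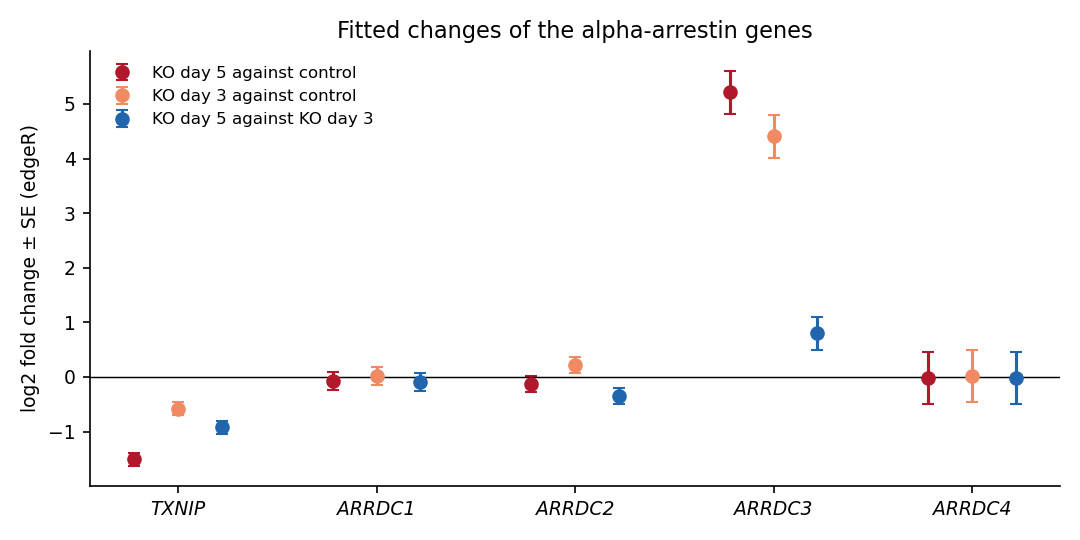
Log2 fold change of each alpha-arrestin gene, with the SE as whiskers, for KO day 5 against control, KO day 3 against control and KO day 5 against KO day 3. TXNIP lies at -1.51, -0.59 and -0.92, ARRDC3 at 5.21, 4.41 and 0.80, and the other members between -0.35 and 0.22.

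Members can be ranked against each other on the deposited FPKM, which divides the reads by gene length and library total. TXNIP averaged 27.7 ± 2.78 FPKM at KO day 5, 49.8 ± 3.53 FPKM at KO day 3 and 76.6 ± 2.03 FPKM in the controls (SD, n = 2 each), and it was the first of the 5 in every library. ARRDC2 came next, at 12.1 FPKM at KO day 5, 14.6 FPKM at KO day 3 and 12.8 FPKM in the controls, and then ARRDC1, at 8.96, 9.04 and 9.13 FPKM in the same groups. ARRDC3 averaged 2.39 ± 0.145 FPKM at KO day 5, 1.30 ± 0.339 FPKM at KO day 3 and 0.0616 ± 0.00557 FPKM in the controls, and ARRDC4 0.608, 0.587 and 0.598 FPKM. The order of the last 2 thus turned round, with ARRDC3 above ARRDC4 in all 4 KO-labelled libraries and below it in both controls. The mean of ARRDC4 was nearly level, so this turn restates the ARRDC3 rise that chose the set. Ranked by mean FPKM among all tested genes, TXNIP was above 89.3% of them at KO day 5, 94.4% at KO day 3 and 96.9% in the controls. ARRDC3 was above 39.2% of them at KO day 5, 30.8% at KO day 3 and 1.41% in the controls.

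Summed over the 5 genes, alpha-arrestin mRNA was 49.3 and 54.2 FPKM at KO day 5, 78.2 and 72.4 FPKM at KO day 3, and 98.9 and 99.4 FPKM in the controls. The share of TXNIP in that sum was 52.2% and 54.7% at KO day 5, 66.9% and 65.3% at KO day 3, and 78.9% and 75.5% in the controls. The share of ARRDC3 was 5.06% and 4.22% at KO day 5, 1.97% and 1.46% at KO day 3, and 0.0663% and 0.0580% in the controls. The sum and both shares were separate in the 3 groups. The ARRDC3 share, and the ratio of TXNIP to ARRDC3 given below, are not independent of the rise that chose the set. The loss of TXNIP mRNA was larger than the gain of ARRDC3 mRNA on this scale, so the summed level was lowest at KO day 5. There were 10.3 and 12.97 units of TXNIP per unit of ARRDC3 at KO day 5, 33.9 and 44.6 at KO day 3, and 1190 and 1302 in the controls.

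**Figure D4:**
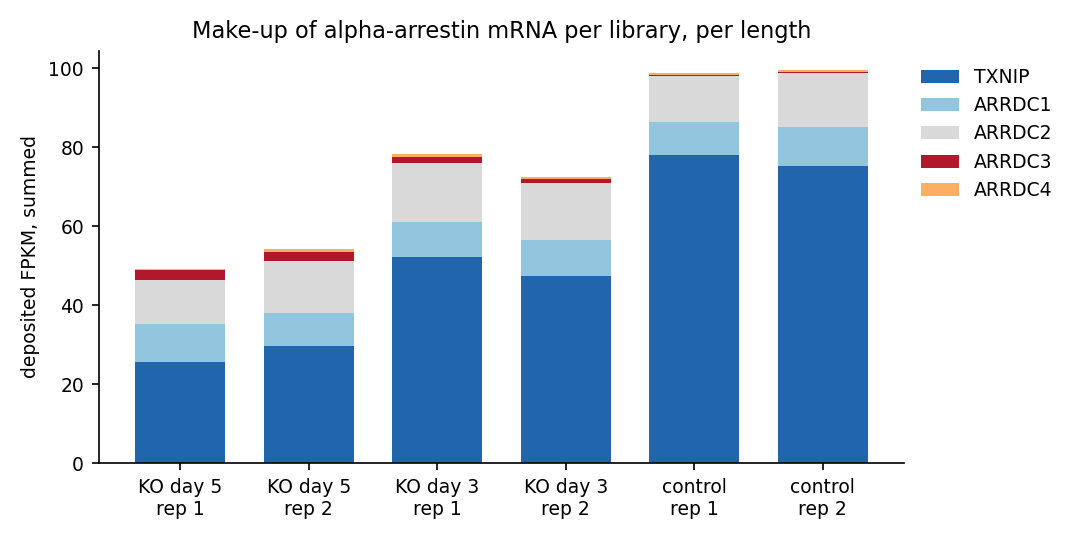
Deposited FPKM of the 5 alpha-arrestin genes stacked per library, with the libraries of KO day 5, KO day 3 and control from left to right. The sums are 49.3 and 54.2 at KO day 5, 78.2 and 72.4 at KO day 3 and 98.9 and 99.4 in the controls, and TXNIP takes most of each column.

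Genes around the alpha-arrestins were read from 10 lists of regulators, ligases, partners and cargo. Of 112 tested genes in these lists, 28 (25%) were called against control at day 5, where 14.5% of all tested genes were called, and 22 (19.6%) at day 3, where 11.7% were called. The lists were chosen with earlier results of these data known, so nothing is read from the difference between these shares. Between the days edgeR called 0 of the 112 and DESeq2 called 3, where edgeR called 0.0274% of all tested genes and DESeq2 306 genes in all. Counts at an unadjusted p are not given, since no share of all tested genes stands beside them. The comparisons with control share the 2 control libraries.

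Of 3 glucose-sensing regulators, 2 could be tested. MLXIP, which encodes MondoA, had 99.1 and 95.05 CPM at KO day 5, 106 and 102 CPM at KO day 3, and 125 and 121 CPM in the controls. It lay lower in every KO-labelled library than in the controls but was not called, with log2 fold changes of -0.34 (SE 0.11, edgeR BH-adjusted p = 0.0822) at day 5 and -0.25 (SE 0.11, edgeR BH-adjusted p = 0.195) at day 3. At day 5 MLXIP passed the threshold with the replicate number as a block (edgeR BH-adjusted p = 0.0288). MLX, its partner, averaged 75.0 ± 1.64 CPM at KO day 5, 95.9 ± 0.461 CPM at KO day 3 and 103 ± 4.32 CPM in the controls. It fell by 0.46 on the log2 scale at day 5 (edgeR BH-adjusted p = 0.0349), and at day 3 its value was -0.11 (edgeR BH-adjusted p = 0.592). The day 5 call of MLX was lost without control replicate 1, either KO day 3 library or either KO day 5 library (edgeR BH-adjusted p = 0.0752 to 0.160), and MLX shares 18.1% of its exon length with PSMC3IP. MLXIPL, which encodes the related factor ChREBP, was too low to test.

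Among 12 tested glucose-responsive targets of these factors, apart from the members, 3 rose and 4 fell at day 5, and 2 rose and 4 fell at day 3. Over all tested genes 14.5% were called at day 5 and 11.7% at day 3, and the list was chosen with earlier results known. FASN, the fatty acid synthase, stood at 362 ± 3.80 CPM at KO day 5, 466 ± 7.85 CPM at KO day 3 and 1139.7 ± 134 CPM in the controls (SD, n = 2 each). It fell by 1.66 on the log2 scale at day 5 (edgeR BH-adjusted p = 0.000517) and by 1.29 at day 3 (edgeR BH-adjusted p = 0.00185). ACLY, which makes cytosolic acetyl-CoA, and ACACA, which makes malonyl-CoA, were the lipogenic genes beside it. ACLY fell by 0.66 at day 5 (edgeR BH-adjusted p = 0.0111) and by 0.56 at day 3 (edgeR BH-adjusted p = 0.0223), but without either library of the KO day compared its adjusted p was 0.0520 to 0.0614 at day 5 and 0.164 to 0.188 at day 3. ACACA fell by 0.70 at day 5 (edgeR BH-adjusted p = 0.00867, and 0.0577 without KO day 5 replicate 2). G6PC3, a glucose-6-phosphatase subunit, went the other way, with log2 fold changes of 0.68 at day 5 (edgeR BH-adjusted p = 0.0140) and 0.998 at day 3 (edgeR BH-adjusted p = 0.00451). Its day 5 call was lost without either KO day 5 library (edgeR BH-adjusted p = 0.0561 and 0.0733). The median of the list was -0.23 at day 5 and -0.20 at day 3, beside 0.01 and -0.00 over all tested genes. Leaving out each library gave 0 to 2 rises and 1 to 4 falls at day 5 and 1 to 3 rises and 1 to 4 falls at day 3.

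Glucose transporters are the cargo that TXNIP and ARRDC4 are best known to control. Of 9 tested transporters, 0 rose and 1 fell at day 5, the barely detected SLC2A4, and 0 were called at day 3. The same fit called 14.5% of all tested genes at day 5 and 11.7% at day 3, so nothing is read from these counts. DESeq2 called 2 of the 9 at day 3, and nothing is read from that count, since no share of all tested genes stands beside it. SLC2A4 was at 0.0566 and 0 CPM at KO day 5, 1.67 and 1.32 CPM at KO day 3, and 0.578 and 1.01 CPM in the controls, and its day 5 call was lost without any 1 of the 6 libraries (edgeR BH-adjusted p = 0.0598 to 0.1249). SLC2A1, the GLUT1 transporter, had 54.2 and 47.4 CPM at KO day 5, 55.7 and 52.0 CPM at KO day 3, and 83.6 and 40.1 CPM in the controls, and it was not called. The controls lay on both sides of the KO-labelled libraries. SLC2A1 passed the threshold without control replicate 2, at both day 5 (edgeR BH-adjusted p = 0.0182) and day 3 (edgeR BH-adjusted p = 0.0337). SLC2A3, the GLUT3 transporter, had 139 and 195 CPM at KO day 5, 145 and 160 CPM at KO day 3, and 246 and 213 CPM in the controls. Its log2 fold change was -0.46 at day 5 (edgeR BH-adjusted p = 0.115) and -0.59 at day 3 (edgeR BH-adjusted p = 0.0655). SLC2A3 at day 3 passed the threshold without either KO day 5 library (edgeR BH-adjusted p = 0.0376 for each), without a low-count filter (0.00125), with DESeq2 (0.0188), with the replicate number as a block (0.00544) and with a fit of only those groups (0.0409). At day 5 SLC2A3 passed it without the filter (edgeR BH-adjusted p = 0.00684) and with the block (0.0196).

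TXN, the thioredoxin that TXNIP binds, rose while TXNIP fell. TXN had 396 and 333 CPM at KO day 5, 380 and 374 CPM at KO day 3, and 198 and 170 CPM in the controls, so every KO-labelled library was above both controls. The log2 fold change was 0.99 (SE 0.14, edgeR BH-adjusted p = 0.00480) at day 5 and 1.03 (SE 0.14, edgeR BH-adjusted p = 0.00491) at day 3, and both calls held without each library in turn. TXNRD1, the cytosolic reductase that recharges thioredoxin, had 557 and 509 CPM at KO day 5, 409 and 393 CPM at KO day 3, and 328 and 284 CPM in the controls. It rose at day 5 by a log2 fold change of 0.80 (SE 0.12, edgeR BH-adjusted p = 0.00707), and its day 3 value of 0.39 did not pass (edgeR BH-adjusted p = 0.0818, and 0.0152 with the replicate number as a block). In the thioredoxin list of 20 tested genes, 5 rose and 3 fell at day 5, and 1 rose and 2 fell at day 3. The shares called over all tested genes were 14.5% at day 5 and 11.7% at day 3, and the list was chosen with earlier results known. Leaving out each library gave 2 to 4 rises and 0 to 3 falls at day 5, and 1 to 2 rises and 0 to 2 falls at day 3. The peroxidase PRDX1 fell by 0.57 at day 5 (edgeR BH-adjusted p = 0.0175), which failed without KO day 5 replicate 1 (0.0591) or replicate 2 (0.106), and PRDX1 shares 24.9% of its exon length with MMACHC.

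NEDD4-family ligases ubiquitinate the cargo that alpha-arrestins present. Of 11 tested ligases and adaptors, 1 rose and 0 fell at day 5, and 0 rose and 1 fell at day 3. Among all tested genes 14.5% were called at day 5 and 11.7% at day 3, so nothing is read from these counts. WWP1, a ligase known to bind ARRDC proteins, averaged 19.1 ± 1.68 CPM at KO day 5, 15.4 ± 2.24 CPM at KO day 3 and 9.90 ± 1.995 CPM in the controls (SD, n = 2 each). Its log2 fold change was 0.95 at day 5 (edgeR BH-adjusted p = 0.0320) and 0.64 at day 3 (edgeR BH-adjusted p = 0.112), and the day 5 call held without control replicate 1 but not without any other library (edgeR BH-adjusted p = 0.0568 to 0.133). NDFIP2, an adaptor that activates these ligases, averaged 109 ± 6.51 CPM at KO day 5, 79.1 ± 2.37 CPM at KO day 3 and 127 ± 7.25 CPM in the controls. It fell by 0.68 at day 3 (edgeR BH-adjusted p = 0.0131), which failed without KO day 3 replicate 1 (0.102) or replicate 2 (0.129), and its value was -0.21 at day 5 (edgeR BH-adjusted p = 0.264). NEDD4, NEDD4L, ITCH and WWP2 were not called at either day in the fit described above. NEDD4L had 6.17 and 3.33 CPM at KO day 5, 1.25 and 2.86 CPM at KO day 3, and 4.88 and 8.63 CPM in the controls. At day 3 its log2 fold change was -1.72 (SE 0.53, edgeR BH-adjusted p = 0.0758), and it passed without a low-count filter (0.00190), with DESeq2 (0.0196) and with the replicate number as a block (0.00995). NEDD4 averaged 30.0 CPM at KO day 5, 17.2 CPM at KO day 3 and 18.9 CPM in the controls, and ITCH 61.7, 44.5 and 51.7 CPM in the same groups. NEDD4 at day 5, with a log2 fold change of 0.67 (edgeR BH-adjusted p = 0.129), passed without the filter (0.0333) and with the block (0.0430).

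Other genes with an arrestin fold numbered 8 tested, of which ARRB1 alone was called, lower at both days. With 14.5% of all tested genes called at day 5 and 11.7% at day 3, nothing is read from that count. ARRB1, the beta-arrestin that uncouples activated receptors, had 58.1 and 64.5 CPM at KO day 5, 77.4 and 90.4 CPM at KO day 3, and 115 and 125 CPM in the controls. It fell by 0.97 on the log2 scale at day 5 (SE 0.14, edgeR BH-adjusted p = 0.00495), and by 0.51 at day 3 (edgeR BH-adjusted p = 0.0461), where leaving out any 1 of the 6 libraries ended the call (edgeR BH-adjusted p = 0.0582 to 0.317). The 3 groups did not overlap for ARRB1, as for TXNIP, and the same held for genes of other kinds such as FASN, MLXIP and MLX. The share of all tested genes with this pattern was not counted, so nothing is read from it.

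Receptors are a further class of cargo that alpha-arrestins route. AVPR2, the vasopressin V2 receptor and a known cargo of alpha-arrestins, had 18.8 and 19.2 CPM at KO day 5, 16.2 and 12.3 CPM at KO day 3, and 48.9 and 79.4 CPM in the controls. It fell by 1.76 on the log2 scale at day 5 (edgeR BH-adjusted p = 0.00576) and by 2.17 at day 3 (edgeR BH-adjusted p = 0.00354), and both calls held without each library in turn. Every KO-labelled library was below both controls, which differed from each other.

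**Figure D5:**
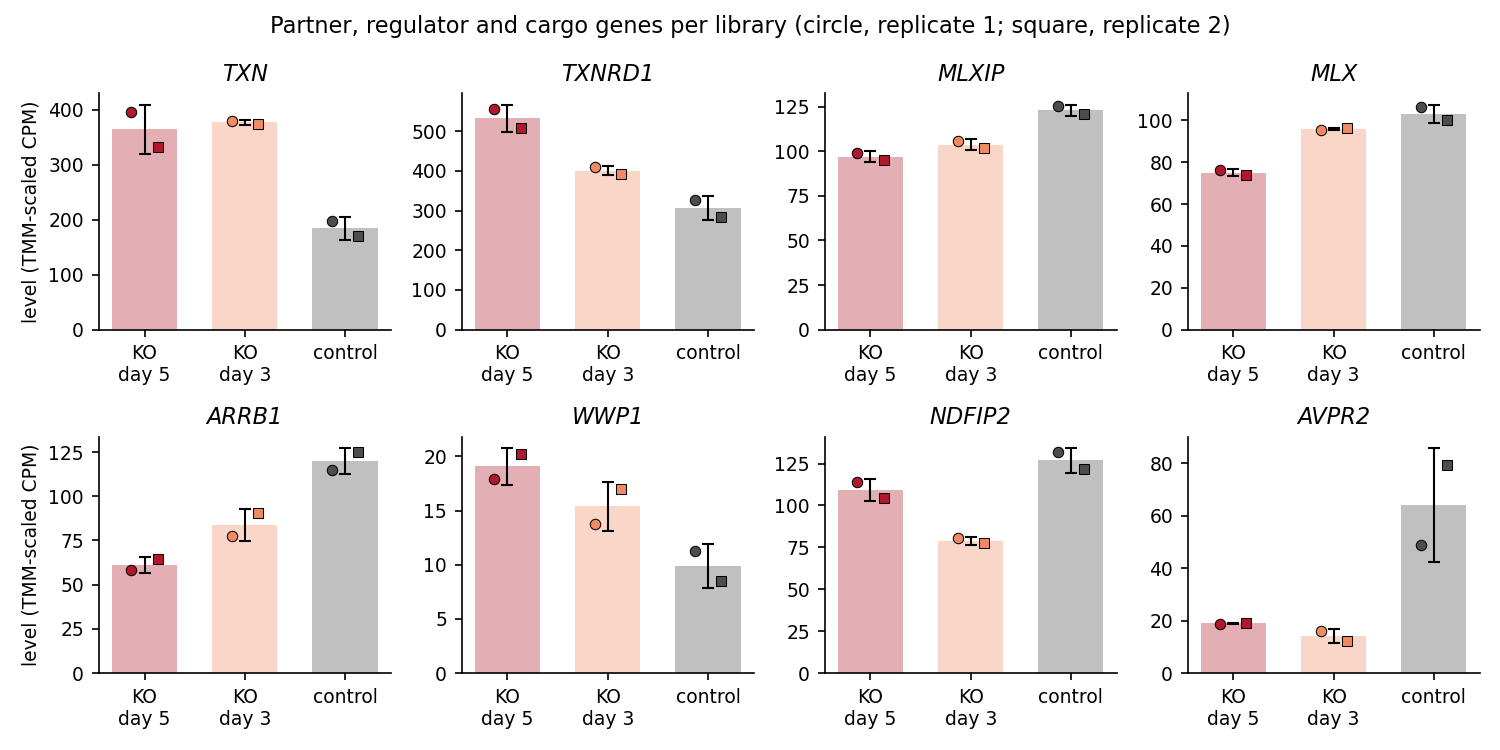
Levels of 8 partner, regulator and cargo genes in TMM-scaled CPM on the vertical axes, for KO day 5, KO day 3 and control, with bars for the mean of 2 libraries, whiskers for the SD, circles for replicate 1 and squares for replicate 2. TXN and TXNRD1 stand highest in the KO-labelled libraries, and ARRB1 and AVPR2 are highest in the controls, where AVPR2 was at 48.9 and 79.4 CPM.

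ARRDC1 buds microvesicles with the ESCRT machinery. Of 13 tested partners, 1 rose and 0 fell at both days, where 14.5% of all tested genes were called at day 5 and 11.7% at day 3. The gene that rose was VPS28, an ESCRT-I subunit, at 130 ± 1.2603 CPM at KO day 5, 140 ± 1.56 CPM at KO day 3 and 95.7 ± 2.03 CPM in the controls (SD, n = 2 each). Its log2 fold change was 0.45 at day 5 (edgeR BH-adjusted p = 0.0339, and 0.0640 to 0.134 without each of the 6 libraries) and 0.55 at day 3 (edgeR BH-adjusted p = 0.0201, and 0.131 and 0.143 without either KO day 3 library). TSG101, the direct partner of ARRDC1, had 47.7 and 44.9 CPM at KO day 5, 48.3 and 53.8 CPM at KO day 3, and 48.4 and 48.0 CPM in the controls, and was not called (edgeR BH-adjusted p = 0.810 at day 5 and 0.740 at day 3).

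FOXO factors are known regulators of TXNIP. Of 21 tested FOXO factors and targets apart from the members, 2 rose and 3 fell at day 5, and 2 rose and 4 fell at day 3. The shares of all tested genes called were 14.5% at day 5 and 11.7% at day 3. The medians of the list were 0.06 at day 5 and -0.35 at day 3, beside 0.01 and -0.00 over all tested genes. FOXO1 averaged 9.54 ± 1.88 CPM at KO day 5, 8.57 ± 0.927 CPM at KO day 3 and 13.7 ± 1.66 CPM in the controls and was not called (edgeR BH-adjusted p = 0.197 at day 5 and 0.118 at day 3). FOXO1 at day 3 passed the threshold with the replicate number as a block (edgeR BH-adjusted p = 0.0424). SESN2, a stress-induced regulator of mTORC1, rose by a log2 fold change of 0.95 at day 5 (edgeR BH-adjusted p = 0.00450) and 1.19 at day 3 (edgeR BH-adjusted p = 0.00250). GADD45A, a growth-arrest gene, rose by 1.88 at day 5 (edgeR BH-adjusted p = 0.00527) and 1.30 at day 3 (edgeR BH-adjusted p = 0.0201, and 0.0695 and 0.0868 without either KO day 3 library). CCNG2, a cyclin of resting cells, fell by 1.34 at day 5 (edgeR BH-adjusted p = 0.00725) and by 1.99 at day 3 (edgeR BH-adjusted p = 0.00253). Genes of this list thus moved in both directions, and leaving out each library gave 2 to 3 rises and 1 to 4 falls at day 5, and 1 to 3 rises and 1 to 4 falls at day 3.

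NLRP3, the inflammasome sensor that TXNIP is reported to bind, was below the controls at both days, as TXNIP was. Their order between the days differed, since NLRP3 was lowest at KO day 3 and TXNIP at KO day 5. NLRP3 had 122 and 132 CPM at KO day 5, 110 and 116 CPM at KO day 3, and 187 and 196 CPM in the controls. It fell by 0.59 on the log2 scale at day 5 (edgeR BH-adjusted p = 0.0153) and by 0.76 at day 3 (edgeR BH-adjusted p = 0.00783). The NLRP3 calls were lost without either library of the KO day compared (edgeR BH-adjusted p = 0.0599 and 0.0820 at day 5, and 0.0705 and 0.0904 at day 3). Among 9 tested inflammasome genes 0 rose and 1 fell at day 5, and 0 rose and 2 fell at day 3. Nothing is read from these counts, since 14.5% of all tested genes were called at day 5 and 11.7% at day 3. Leaving out each library gave 0 to 1 rises and 0 to 1 falls at day 5, and 0 to 1 rises and 0 to 2 falls at day 3.

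The genes whose profiles were most like those of ARRDC3 and TXNIP were sought by Pearson's r of log2 CPM over the 6 libraries among 9720 genes, as a description over libraries that share their groups. That log2 CPM was taken with a prior count of 2, which narrows the range of a gene with as few control reads as ARRDC3. For ARRDC3 the highest values were 0.9994 for UFSP2, a protease of the UFM1 system, 0.9987 for ANAPC16, a subunit of the anaphase-promoting complex, 0.9986 for TCEA1, a transcription elongation factor, 0.9984 for FAH, an enzyme of tyrosine breakdown, and 0.9979 for GPR89B, an ion channel gene with a near-identical copy. TCEA1 had 1094 and 1036 CPM at KO day 5, 820.1 and 773 CPM at KO day 3, and 248 and 248 CPM in the controls, and UFSP2 18.7 and 19.0 CPM, 15.6 and 13.2 CPM, and 4.37 and 4.07 CPM in the same groups. Both followed the order of ARRDC3, with the controls lowest and day 5 highest, but over a smaller range. UFSP2 shares 32.7% of its exon length with ANKRD37. For TXNIP the highest values were 0.9935 for BICD2, 0.9934 for TGIF2, 0.9932 for PISD, 0.9931 for GTF3C2 and 0.9894 for VKORC1L1. TGIF2, a homeobox repressor, had 27.4 and 27.0 CPM at KO day 5, 42.9 and 40.6 CPM at KO day 3, and 56.5 and 52.4 CPM in the controls. Its stepwise order was that of TXNIP. BICD2, a dynein adaptor, moved far less, with 43.4 and 43.9 CPM at KO day 5, 49.2 and 48.4 CPM at KO day 3, and 51.0 and 51.7 CPM in the controls. BICD2 was not called against control at day 5 (log2 fold change -0.23, edgeR BH-adjusted p = 0.255) or at day 3 (-0.07, edgeR BH-adjusted p = 0.748), so a high r here says nothing of the size of a change. GTF3C2 was not called at either day, except at day 5 with the replicate number as a block (edgeR BH-adjusted p = 0.0245), and the day 5 call of PISD (edgeR BH-adjusted p = 0.0495) was lost without any 1 of the 6 libraries (0.0583 to 0.170).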

How the data were processed

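Poly-A RNA of 6 MOLM-13 libraries was sequenced on an Illumina instrument, per the labels' protocols. The authors deposited 1 table with raw read counts and FPKM values per gene and library, per the file headers. The submitters' processing notes name HISAT2, HTSeq 0.11.2, DESeq2 1.26.0 and GRCh38, with no role or order. The annotation used is not given in these sources. GENCODE 29 holds all 24878 gene IDs and gave coordinates.

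Counts went into edgeR 4.0.16 (R 4.3.3): filterByExpr (minimum count 10, minimum total 15), TMM factors (0.962 to 1.04), 1 robust quasi-likelihood fit of the 3 groups without a block, a prior count of 0.125, and Benjamini-Hochberg adjustment over 14601 genes with a threshold of 0.05. The SE was taken as the size of the log2 fold change divided by the root of the F statistic. Alternatives were other scalings and filters, DESeq2 1.42.0, a block for the replicate number, fits of only the groups compared, leaving out each library, and limma 3.58.1 on the deposited log2(FPKM + 1) and log2(FPKM + 0.1). Libraries of a group differed by more than sampling noise (chi-square over degrees of freedom of 17.4 to 37.7 over genes with at least 20 counts).

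The members, the gene lists and the rule for named genes were chosen with earlier results of these data known. The rule took the members, ARRDC5, antisense genes of members, fixed regulators and partners, CAMK2D, up to 4 called genes per list with the smallest adjusted p in each comparison, and the 5 genes most like ARRDC3 and TXNIP with a mean of at least 5 CPM. Some genes that the rule takes, and the count of a list that rests on one, are not reported here.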

Additional observations from a re-analysis of the deposited data

How the results depend on the processing

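TXNIP at day 5 against control kept its direction and call under every alternative, with log2 fold changes of -1.60 to -1.44, and no called change of a member turned its direction among the settings run. ARRDC1 and ARRDC4, never called, took both signs on leaving out each library: ARRDC1 from -0.20 to 0.05 at day 5 and from -0.10 to 0.17 at day 3, and ARRDC4 from -0.47 to 0.32 at day 5 and from -0.25 to 0.26 at day 3. Against 1710 genes called at day 3, 2117 at day 5 and 4 between the days, the counts were 2925, 3234 and 599 without a filter, 415, 872 and 0 with limma on unfiltered log2(FPKM + 1), and 282 to 1906, 723 to 1874 and 1 to 15 on leaving out each library, where a lone library was assumed to vary like the other groups. The shifts of over 1.5 times were at day 3 without KO day 3 replicate 1 (282), KO day 3 replicate 2 (333) or control replicate 1 (1059), at day 5 without KO day 5 replicate 1 (914), KO day 5 replicate 2 (723) or KO day 3 replicate 1 (1370), and between the days without control replicate 1 (14), control replicate 2 (15), KO day 5 replicate 2 (1) or either KO day 3 library (1). Fits of only the groups compared called 1315 at day 5. Between the days DESeq2 called 306, and limma with the filter 1 on log2(FPKM + 1) and 0 on log2(FPKM + 0.1). TXNIP at day 3 was -0.61 and no longer called with unfiltered limma (adjusted p = 0.0633), and -0.63 to -0.51 on leaving out each library. Between the days TXNIP was called at -0.97 without a filter and -0.94 with DESeq2, and leaving out each library gave -1.02 to -0.86. ARRDC3 was 1.11 at day 3 and 1.67 at day 5 on log2(FPKM + 1), filtered or not, and 3.09 and 3.94 on log2(FPKM + 0.1), since the pseudocount exceeds its control level. The cause of the other shifts was not tested.

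With the replicate number as a block, 4064 genes were called at day 3, 4418 at day 5 and 1117 between the days, and TXNIP was called between the days at -0.92. The block changed no other call of a member. Deviations of libraries with the same number correlated across 14601 genes at 0.303 to 0.355, and the titles give them a shared letter. The labels do not say what the number or letter marks, and 2 numbers are too few to establish pairs from the data, so whether the libraries are paired is not known. Levels of a few reads, as for ARRDC3 and ARRDC5 in the controls, are limited by depth.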
